A study of Mus musculus with 6 samples.

Results

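The synaptic vesicle release machinery was examined as 72 genes, chosen by gene name from the 51826 genes of the deposited count table: the synapsins (*Syn1* to *Syn3*), every numbered synaptotagmin (Syt), the complexins (*Cplx*), syntaxins (*Stx*), syntaxin-binding proteins (*Stxbp*) and vesicle-associated membrane proteins (*Vamp*), the SV2, RIM (*Rims*) and Munc13 (*Unc13*) families, the vesicular glutamate transporters *Slc17a6* to *Slc17a8*, and *Snap25*, *Snap23*, *Syp*, *Bsn*, *Pclo*, *Slc32a1*, *Rab3a* and *Nsf*. All 72 were found, and 68 of them were among the 18345 genes with enough counts to test. The other 4 (*Stx11*, *Stx19*, *Syt8* and *Cplx4*) had 0 to 18 counts per library, at or near the limit of detection.

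Bulk polyA RNA was sequenced from the cortex of irradiated male BALB/c mice aged 6 to 8 weeks when the experiments began, giving 3 *Lgmn*+/+ and 3 *Lgmn*-/- libraries. All 6 libraries came from mice that had received a single whole-brain X-ray dose of 10 Gy and were sampled on day 3, so every difference below is between genotypes after irradiation, and non-irradiated libraries were not analysed here. *Lgmn* encodes asparagine endopeptidase (AEP), a lysosomal cysteine protease. The *Lgmn*-/- mice were *Lgmn* flox/flox: Cre+ animals of a line derived from targeted ES cells, and the sources used here do not name the promoter that drives Cre.

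Neurotransmitter release follows a common sequence of steps in nerve terminals. Vesicular transporters fill the vesicle with glutamate or GABA, synapsins hold vesicles in reserve, active zone proteins dock and prime them beside calcium channels, and a complex of vesicle and plasma membrane SNAREs pulls the membranes together when synaptotagmin binds calcium. NSF then takes the spent SNARE complex apart. Cortical tissue is rich in these transcripts, and most of its neurons are glutamatergic.

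Total counts ranged from 41874462 to 46829441 per library. Levels between libraries are given as CPM, counts scaled to library size with TMM factors, and levels between genes as FPKM, which also divides by transcript length. *Lgmn* itself was at 130, 129 and 127 CPM in the *Lgmn*+/+ libraries and 83.4, 70.4 and 93.6 CPM in the *Lgmn*-/- libraries, a log2 fold change of -0.64 (adjusted p = 0.0315, edgeR quasi-likelihood test with Benjamini-Hochberg adjustment), with an adjusted p of up to 0.131 when a library was left out. These whole-gene counts do not show which exons were removed. General neuronal markers summed to 4955 to 5130 CPM in *Lgmn*+/+ and 5196 to 5577 CPM in *Lgmn*-/-, and glutamatergic cortical markers to 4311 to 5627 and 4593 to 5993 CPM. Of the marker lists, 7 of 9 oligodendrocyte genes were lower in *Lgmn*-/- (summed level 3798 to 4592 CPM in *Lgmn*+/+ and 2523 to 2716 CPM in *Lgmn*-/-) and 5 of 5 tested erythroid genes were higher (7.59 to 15.8 and 234 to 2273 CPM), with no oligodendrocyte marker at 0. The astrocyte gene *Aqp4* (1 of 9) and the GABAergic gene *Dlx1* (1 of 10) were higher, and 0 of 12 neuronal, 0 of 7 glutamatergic and 0 of 9 tested microglial markers passed. The microglial markers still summed to 283 to 306 CPM in *Lgmn*+/+ and 236 to 264 CPM in *Lgmn*-/-. Of the 9 tested, 8 had a log2 fold change below 0 and 1 above. The part of these shifts in the values below was not tested, and in bulk tissue fewer cells of a type and less RNA per cell cannot be told apart.

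Promoter sequences were read for most of the genes. RefSeq gave windows from 250 bases before to 50 bases after a transcription start (GRCm38.p6) for 57 of the 72 genes, 75 windows in all. The GC box GGGCGG, read on either strand, was present in 46 of these 75 windows (61.3%) and in 35.7% of all 32851 windows of the same length. The TATA motif TATAAA was present in 4 of the 75 (5.33%) and in 13.6% of all windows. The windows were GC-rich, with a median GC content of 62% against 52.7%. Both motifs were kept after several had been searched, so the shares are descriptions, and a match is not evidence of binding. The 250 bases before the start are shown for *Stx6* and *Rims1*, which had the smallest p values below, and for *Slc17a7* and *Sv2c*. The CPM of *Slc17a7* spanned 1.39-fold over the libraries and that of *Sv2c* 4.09-fold. Capitals mark GGGCGG or its reverse complement, 5′ to 3′ on the strand of the gene.
*Stx6* (chr1:155158453-155158702, plus strand): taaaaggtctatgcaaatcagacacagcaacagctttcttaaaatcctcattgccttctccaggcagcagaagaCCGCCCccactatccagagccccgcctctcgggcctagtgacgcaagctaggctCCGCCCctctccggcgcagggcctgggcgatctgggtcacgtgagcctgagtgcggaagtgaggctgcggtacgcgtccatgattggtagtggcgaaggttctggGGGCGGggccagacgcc
*Rims1* (chr1:22806159-22806408, minus strand): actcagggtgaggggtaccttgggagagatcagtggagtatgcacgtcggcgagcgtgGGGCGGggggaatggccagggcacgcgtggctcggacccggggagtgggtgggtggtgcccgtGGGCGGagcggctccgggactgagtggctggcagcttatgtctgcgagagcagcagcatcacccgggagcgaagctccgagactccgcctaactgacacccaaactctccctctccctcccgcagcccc
*Slc17a7* (chr7:45163671-45163920, plus strand): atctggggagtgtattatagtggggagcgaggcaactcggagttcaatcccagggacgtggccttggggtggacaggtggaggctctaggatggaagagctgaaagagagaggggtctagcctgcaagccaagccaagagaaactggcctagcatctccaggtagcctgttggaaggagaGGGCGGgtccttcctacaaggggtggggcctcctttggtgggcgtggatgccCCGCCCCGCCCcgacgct
*Sv2c* (chr13:96132578-96132827, minus strand): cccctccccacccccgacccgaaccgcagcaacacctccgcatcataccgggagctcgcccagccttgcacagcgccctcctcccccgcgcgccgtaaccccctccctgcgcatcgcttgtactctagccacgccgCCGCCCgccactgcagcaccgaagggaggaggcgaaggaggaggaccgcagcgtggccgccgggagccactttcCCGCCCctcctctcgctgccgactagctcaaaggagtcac
The *Stx6* and *Slc17a7* stretches each held 3 copies, and the *Rims1* and *Sv2c* stretches each held 2.

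The levels of the machinery spanned several orders of magnitude. Averaged over the 6 libraries, 17 of the 72 genes were at 100 FPKM or more, 25 from 10 to under 100, 24 from 1 to under 10, and 6 under 1 FPKM. *Snap25*, the plasma membrane SNARE that contributes a pair of helices to the core complex, was the most abundant at 1349 FPKM. Synaptophysin (*Syp*), a vesicle membrane protein, followed at 603 FPKM, and *Vamp2*, the main vesicle SNARE of forebrain synapses, at 555 FPKM. The next most abundant members had different roles. *Cplx1*, a complexin that clamps and promotes fusion, was at 419 FPKM, *Rab3a*, the vesicle GTPase, at 397 FPKM, *Slc17a7*, which encodes VGLUT1, at 371 FPKM and *Syt1*, the fast calcium sensor, at 344 FPKM. The active zone genes *Rims1*, *Unc13a*, *Bsn* and *Pclo* were at 39.3, 36.6, 27.3 and 7.98 FPKM. Among low members, *Slc17a6* (VGLUT2) was at 4.85 FPKM, *Snap23* at 3.74 FPKM and *Slc17a8* (VGLUT3) at 0.725 FPKM.

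**Figure D1:**
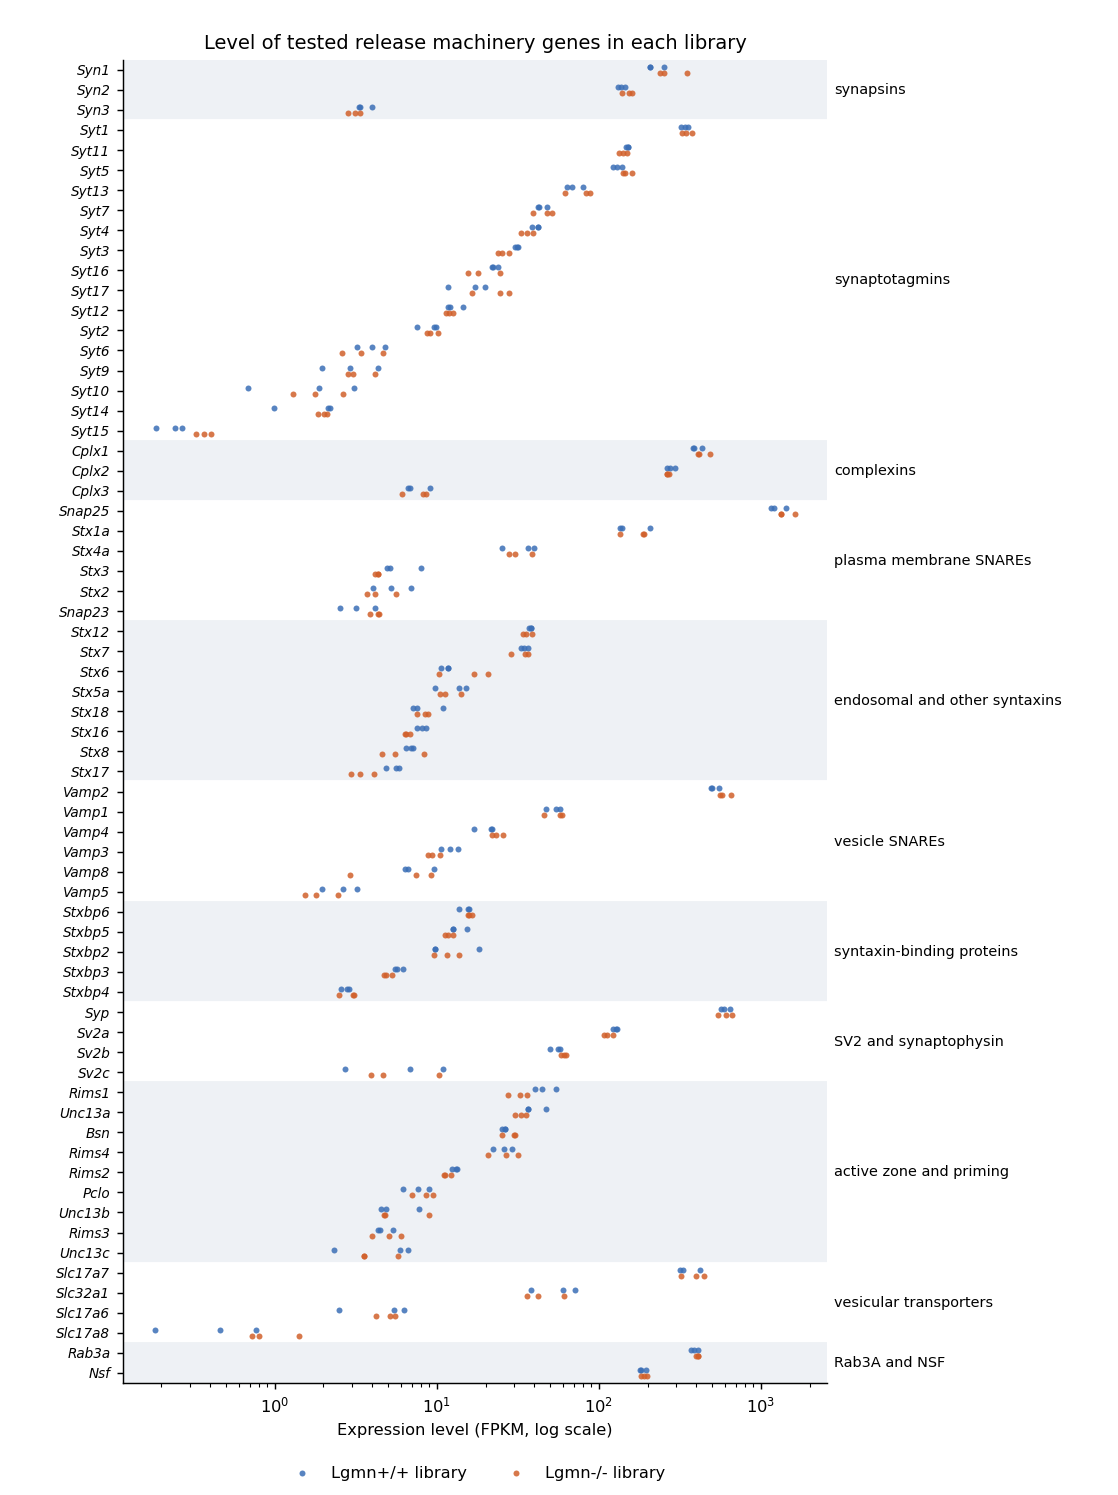
Level of tested release machinery genes in each library, in FPKM on a log axis, grouped by role, with blue points for the 3 *Lgmn*+/+ libraries and orange points for the 3 *Lgmn*-/- libraries. *Snap25* lies farthest right at a mean of 1349 FPKM, *Syt15* and *Slc17a8* lie farthest left, and for most genes the blue and orange points overlap.

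To ask whether the loss of *Lgmn* altered this machinery after irradiation, each gene was compared between genotypes in one fit across all 18345 genes. None of the 68 tested members passed, with 0 higher and 0 lower at an adjusted p under 0.05 (edgeR quasi-likelihood test, Benjamini-Hochberg adjustment over all genes tested). In the same fit 611 of all genes passed (3.33%), 303 of them higher (1.65%) and 308 lower (1.68%) in *Lgmn*-/-. The smallest adjusted p of a member was 0.145, for *Stx6*. At an unadjusted p under 0.05 there were 6 members (8.82%), 3 higher and 3 lower, against 18.6% of all genes. Past both that adjusted p and an absolute log2 fold change over 1 there were 0 members, against 2.06% of all genes. Limma-voom called 0 members, as did limma on log2 FPKM at each pseudocount, and DESeq2 called 1, *Stx6*, where it called 7.76% of all genes.

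The separation of members by genotype was counted beside that of all genes. The 3 values of one genotype lay wholly above the 3 of the other in 13 of 68 members (19.1%), against 25.7% of all genes. The 6 that were higher in every *Lgmn*-/- library were *Syt5*, *Syt15*, *Snap23*, *Vamp2*, *Sv2b* and *Slc17a8*, and the 7 that were lower were *Syt3*, *Stx3*, *Stx17*, *Vamp3*, *Stxbp5*, *Sv2a* and *Rims1*. Without *Lgmn*+/+ replicate 1 the count was 27 of 68 (39.7%), against 37.7% of all genes, and without *Lgmn*-/- replicate 1 it was 29 (42.6%), against 35.0%. Without any one of the other 4 libraries it was 16 or 17, against 31.7% to 42.7% of all genes.

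The precision of the comparison varied with the level of each gene. The median log2 fold change was 0.07 over the members and -0.01 over all genes. There were 42 members above 0 and 26 below (61.8% above 0, against 48.3% of all genes). At 30 CPM or more, 66.7% of members were above 0, against 57.2% of all genes. The 95% interval of the fold change lay within 2-fold in either direction for 59 of 68 members, against 70.3% of all genes, and within 1.5-fold for 43 of 68, against 43.3%. Among genes at 30 CPM or more, the 1.5-fold interval held for 32 of 45 members and for 72.9% of all genes, and 0 of the 45 members passed the test, against 2.49%. Where the interval is wide, as for *Slc17a8*, *Syt14*, *Syt10* and *Sv2c*, a change of 2-fold was not excluded by these libraries.

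**Figure D2:**
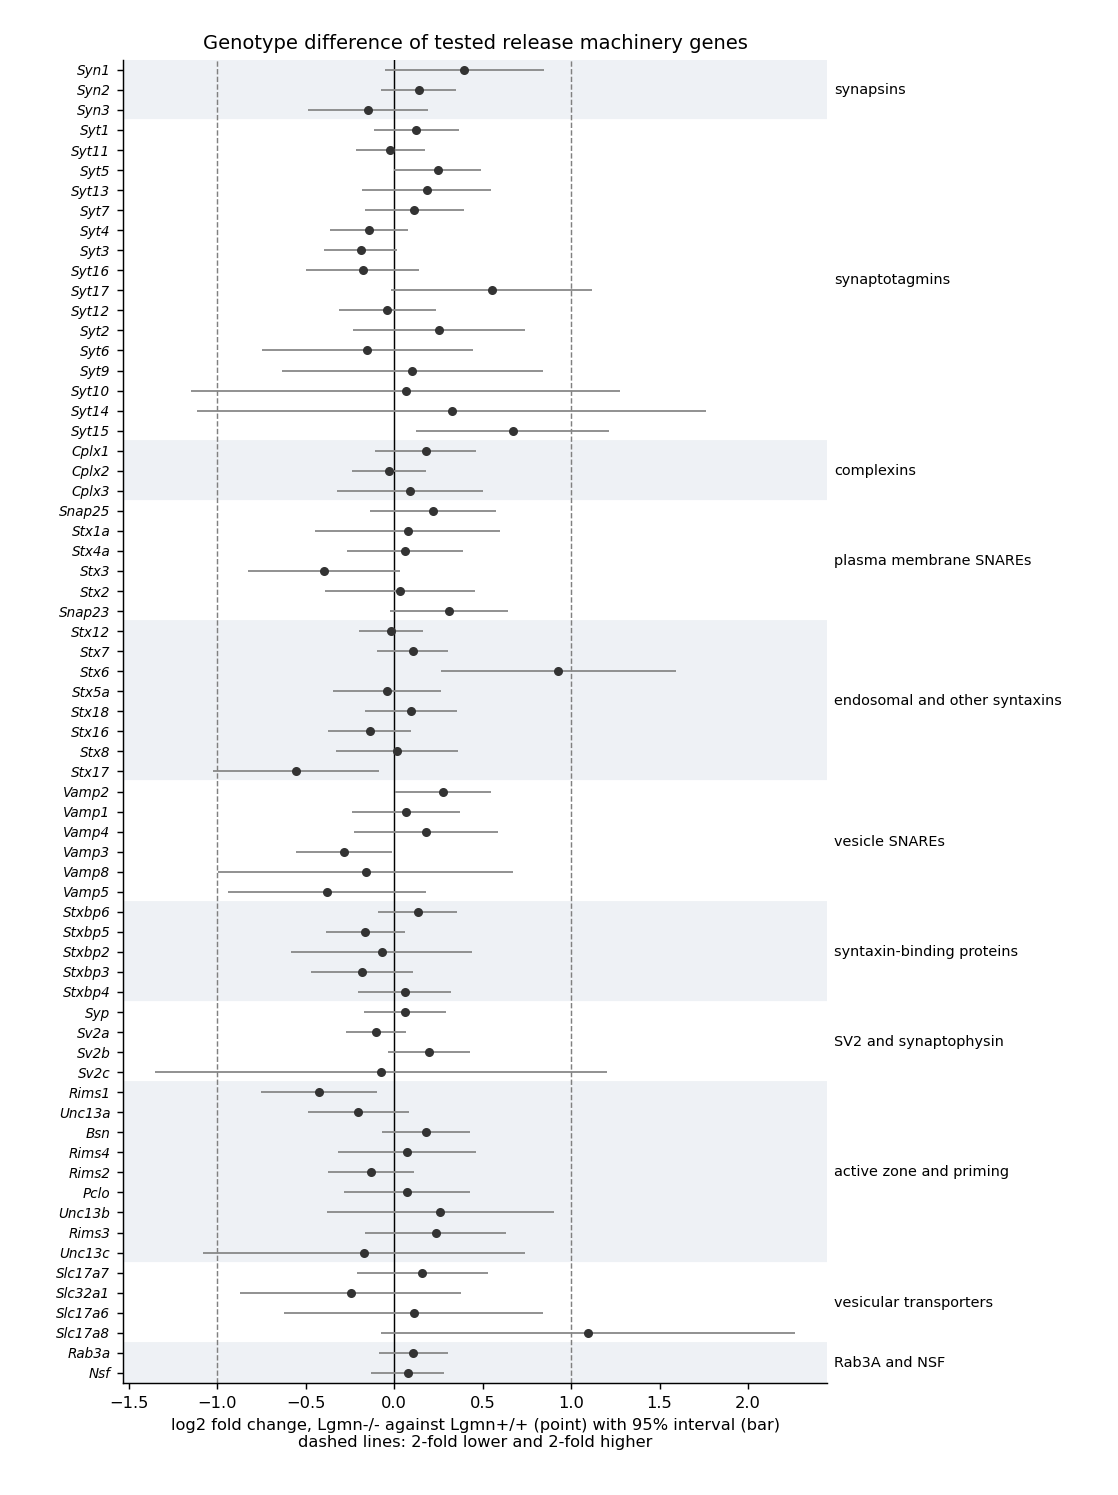
Log2 fold change of tested members, *Lgmn*-/- against *Lgmn*+/+ (point), with its 95% interval (bar), grouped by role, with dashed lines at 2-fold lower and higher. Most bars lie between the dashed lines and cross 0, and the widest belong to *Syt14*, *Sv2c*, *Syt10* and *Slc17a8*.

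**Figure D3:**
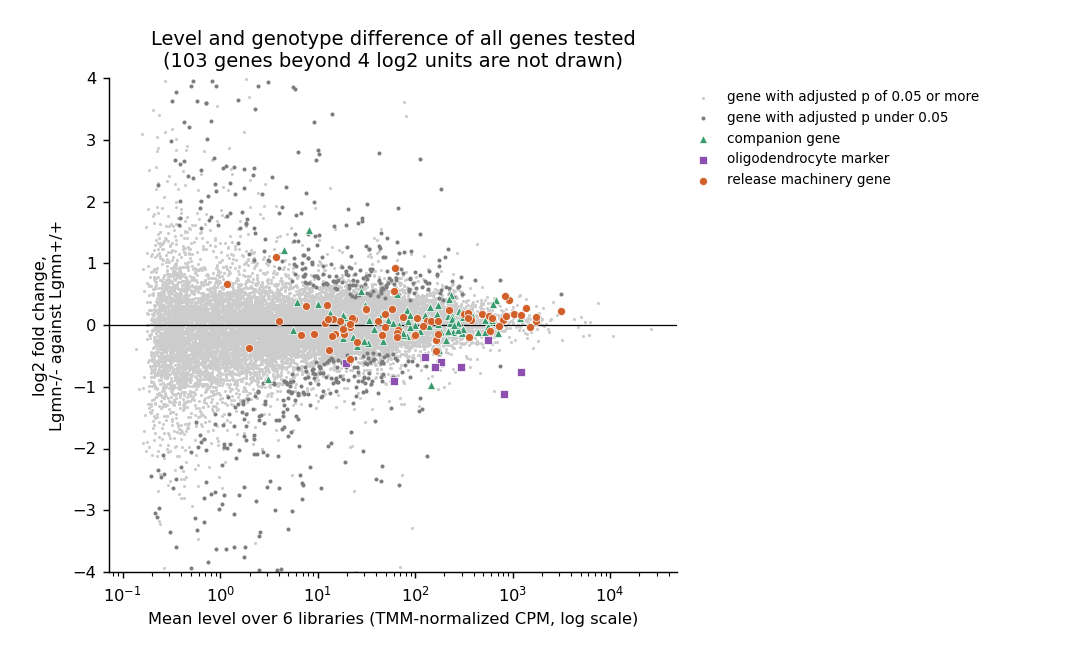
Log2 fold change (*Lgmn*-/- against *Lgmn*+/+) against mean level in CPM on a log axis for all genes tested, with members in orange, companion genes of the same pathway in green and oligodendrocyte markers in purple. The members lie along 0 inside the cloud of all genes, while the oligodendrocyte markers lie below 0.

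No SNARE of the fusion complex passed the test. *Snap25* was at 3342, 2638 and 2794 CPM in *Lgmn*+/+ and 3129, 2999 and 4092 CPM in *Lgmn*-/-. The genotypes overlapped, and the highest value was *Lgmn*-/- replicate 3 (log2 fold change 0.22, 95% interval -0.13 to 0.57). *Vamp2* was at 1319, 1199 and 1216 CPM in *Lgmn*+/+ and 1433, 1352 and 1744 CPM in *Lgmn*-/-. Each *Lgmn*-/- library lay above each *Lgmn*+/+ library, but the difference (log2 fold change 0.28, interval 0.01 to 0.55) did not pass the adjustment (adjusted p = 0.258, edgeR). *Stx1a*, a plasma membrane syntaxin, was at 472, 317 and 302 CPM and 288, 428 and 434 CPM (log2 fold change 0.08, interval -0.44 to 0.60). *Stx1a* varied more within a genotype than between genotypes. Of the 7 tested plasma membrane SNAREs none passed, and the same held for the 6 vesicle SNAREs.

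*Vamp3*, an endosomal vesicle SNARE found in many cell types, was at 27.9, 30.6 and 24.1 CPM in *Lgmn*+/+ and 22.0, 23.9 and 22.0 CPM in *Lgmn*-/-. All 3 *Lgmn*-/- values lay below the *Lgmn*+/+ values (log2 fold change -0.28, adjusted p = 0.252, edgeR), with *Lgmn*+/+ replicate 3 and *Lgmn*-/- replicate 2 nearly equal.

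The syntaxins of endosomes and the secretory pathway gave the smallest p value of the machinery. *Stx6*, a SNARE of the trans-Golgi network and endosomes, was at 35.1, 37.4 and 56.2 CPM in *Lgmn*+/+ and 52.0, 101 and 91.7 CPM in *Lgmn*-/-. Replicates 2 and 3 of *Lgmn*-/- stood above all other libraries, while *Lgmn*-/- replicate 1 lay below *Lgmn*+/+ replicate 3, so the genotypes overlapped. The log2 fold change was 0.93 (interval 0.26 to 1.59, adjusted p = 0.145 with edgeR and 0.0153 with DESeq2). *Stx17*, a SNARE of autophagosomes, was at 27.1, 23.0 and 26.5 CPM in *Lgmn*+/+ and 19.5, 20.4 and 12.2 CPM in *Lgmn*-/-. The genotypes did not overlap, and *Lgmn*-/- replicate 3 was the lowest (log2 fold change -0.55, interval -1.02 to -0.09, adjusted p = 0.203, edgeR). The other 6 endosomal and secretory syntaxins had log2 fold changes from -0.14 to 0.11.

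The proteins that act on SNAREs likewise did not pass. *Cplx1* was at 1056, 937 and 937 CPM and 1041, 985 and 1288 CPM (log2 fold change 0.18, interval -0.11 to 0.46). *Cplx2*, its close relative, was at 1458, 1502 and 1652 CPM and 1532, 1425 and 1569 CPM, the 2 sets overlapping almost fully (log2 fold change -0.03, interval -0.24 to 0.18). *Nsf*, the ATPase that recycles SNAREs, was at 737, 746 and 822 CPM and 768, 803 and 858 CPM (log2 fold change 0.08, interval -0.13 to 0.28).

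Of the 16 tested synaptotagmins none passed. *Syt1* was at 1721, 1605 and 1698 CPM in *Lgmn*+/+ and 1694, 1721 and 2068 CPM in *Lgmn*-/-, and only *Lgmn*-/- replicate 3 exceeded the *Lgmn*+/+ range clearly (log2 fold change 0.13, interval -0.12 to 0.37). *Syt5*, a calcium-binding relative, was at 196, 198 and 215 CPM and 236, 216 and 271 CPM. Its genotypes barely separated (log2 fold change 0.25, interval -0.00 to 0.49, adjusted p = 0.269, edgeR). *Syt17* was at 37.3, 51.0 and 60.7 CPM and 51.2, 83.1 and 84.0 CPM, with an overlap between *Lgmn*+/+ replicate 3 and *Lgmn*-/- replicate 1 (log2 fold change 0.55, interval -0.02 to 1.12, adjusted p = 0.281, edgeR). *Syt15* separated by genotype at a level of only 0.938, 1.05 and 0.726 CPM against 1.37, 1.49 and 1.46 CPM. These were 33 to 45 counts in *Lgmn*+/+ and 61 to 69 in *Lgmn*-/- (log2 fold change 0.67, interval 0.12 to 1.22, adjusted p = 0.190, edgeR).

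**Figure D4:**
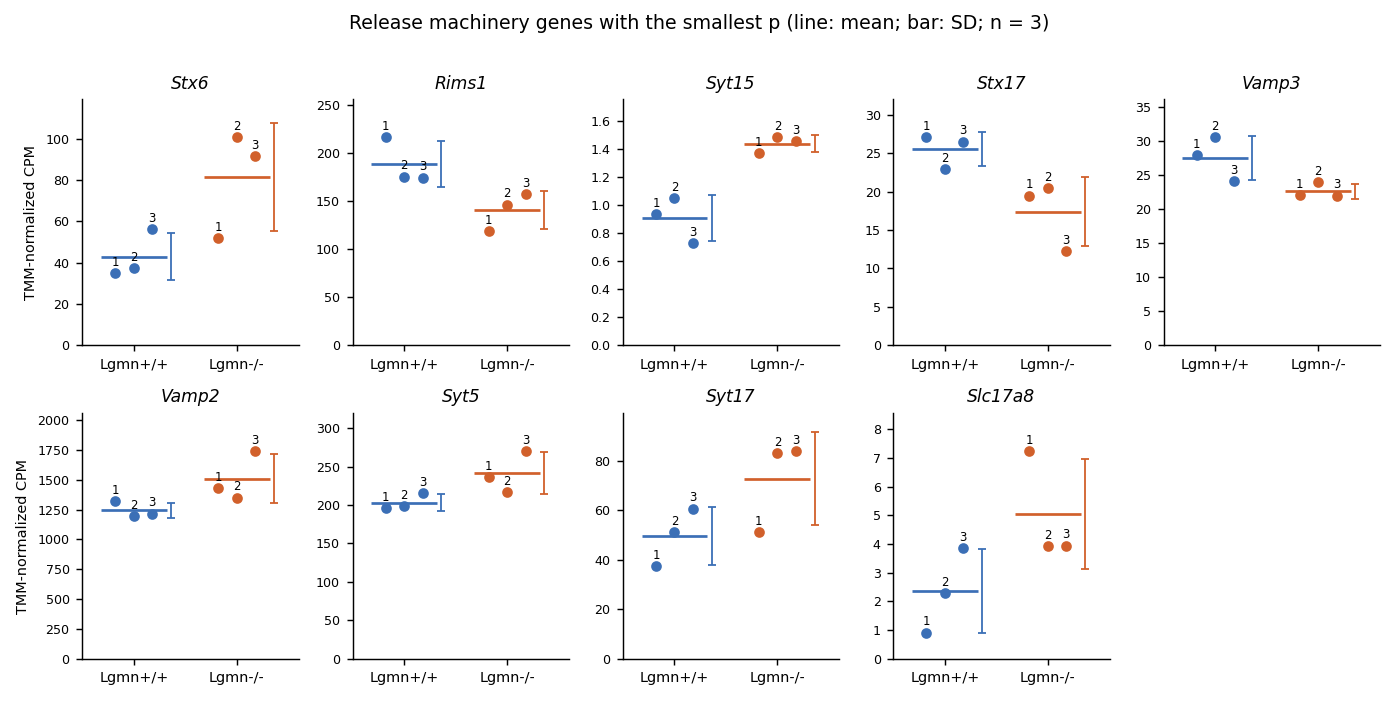
TMM-normalized CPM of members with the smallest unadjusted p, with each library numbered by replicate, the mean as a line and the SD as a bar (n = 3 per genotype). *Rims1*, *Syt15*, *Stx17*, *Vamp3*, *Vamp2*, *Syt5* and *Slc17a8* do not overlap between genotypes, and *Stx6* and *Syt17* do.

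At the active zone, *Rims1* had the second smallest p of the machinery. It encodes RIM1, a scaffold that ties vesicles bearing Rab3A to calcium channels and Munc13. *Rims1* was at 217, 176 and 175 CPM in *Lgmn*+/+ and 119, 146 and 157 CPM in *Lgmn*-/-. All 3 *Lgmn*-/- libraries lay below all 3 *Lgmn*+/+ libraries (log2 fold change -0.42, interval -0.75 to -0.10, adjusted p = 0.168, edgeR). Within the RIM family, *Rims1* made up 53.9%, 50.4% and 50.05% of the summed FPKM of *Rims1* to *Rims4* in *Lgmn*+/+ and 43.7%, 42.2% and 42.7% in *Lgmn*-/-, or 51.5% ± 2.13 and 42.9% ± 0.744 (SD, n = 3). This was 1 of 13 family shares computed after the values were seen and the only one that did not overlap. An exact permutation test gave p = 0.1, two-sided, the smallest that 3 against 3 allows, and 0.743 adjusted over the 13 shares.

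*Unc13a*, *Bsn* and *Pclo* did not pass either. *Unc13a*, which encodes the priming factor Munc13-1, was at 446, 342 and 355 CPM in *Lgmn*+/+ and 309, 336 and 349 CPM in *Lgmn*-/-. *Lgmn*+/+ replicate 1 was highest and the other 5 libraries lay within 309 to 355 CPM (log2 fold change -0.20, interval -0.49 to 0.08). The scaffold *Bsn* was at 458, 447 and 464 CPM and 454, 518 and 582 CPM (log2 fold change 0.18, interval -0.07 to 0.43). Its partner *Pclo* was at 114, 126 and 149 CPM and 141, 113 and 156 CPM, overlapping throughout (log2 fold change 0.07, interval -0.28 to 0.43).

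No vesicle protein described here from outside the fusion complex passed. *Syn1*, the synapsin that tethers vesicles to the cytoskeleton, was at 909, 740 and 749 CPM in *Lgmn*+/+ and 934, 851 and 1374 CPM in *Lgmn*-/-. *Lgmn*-/- replicate 3 was well above the others (log2 fold change 0.40, interval -0.05 to 0.84). *Syp* was at 1816, 1652 and 1629 CPM and 1592, 1835 and 1885 CPM (0.06, interval -0.17 to 0.29), and *Rab3a* at 625, 584 and 576 CPM and 623, 618 and 684 CPM (0.11, interval -0.09 to 0.31). *Sv2a*, the vesicle glycoprotein that binds levetiracetam, was at 600, 621 and 598 CPM and 557, 574 and 562 CPM. Its libraries were among the tightest of the machinery and did not overlap, yet the interval of -0.27 to 0.07 on the log2 scale held 0.

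The vesicular transporters label the transmitter type of a terminal. *Slc17a7* was at 1361, 1014 and 1077 CPM in *Lgmn*+/+ and 1052, 1410 and 1393 CPM in *Lgmn*-/- (log2 fold change 0.16, interval -0.21 to 0.53). VGLUT1 transcripts made up 97.9% to 99.4% of the FPKM of the 3 glutamate transporters in every library. *Slc32a1*, which encodes the GABA transporter VGAT, was at 119, 187 and 225 CPM and 196, 129 and 123 CPM, and its share of the 4 transporters ran from 8.23% to 17.5% with both genotypes over most of that range. *Slc17a6* was at 11.6, 28.3 and 24.8 CPM and 19.9, 22.9 and 27.0 CPM, with *Lgmn*+/+ replicate 1 lowest (log2 fold change 0.11, interval -0.62 to 0.84).

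*Slc17a8* had the largest fold change of the members. It was at 0.914, 2.29 and 3.85 CPM in *Lgmn*+/+ (39, 98 and 175 counts) and 7.25, 3.92 and 3.94 CPM in *Lgmn*-/- (322, 182 and 173 counts). The genotypes touched, with *Lgmn*+/+ replicate 3 just below *Lgmn*-/- replicates 2 and 3 (log2 fold change 1.10, interval -0.07 to 2.27, adjusted p = 0.296, edgeR).

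Some members differed more between libraries of one genotype than between genotypes. Of the 68 tested, 42 lay within 1.5-fold over all 6 libraries, 13 spanned more than 2-fold and 4 more than 3-fold, namely *Sv2c*, *Syt10*, *Syt14* and *Slc17a8*. *Sv2c*, the SV2 protein known for its abundance in the basal ganglia, was at 27.3, 67.8 and 111 CPM in *Lgmn*+/+ and 107, 39.0 and 50.2 CPM in *Lgmn*-/-. *Lgmn*+/+ replicate 3 and *Lgmn*-/- replicate 1 were high and *Lgmn*+/+ replicate 1 was low. *Unc13c*, a Munc13 family member, was at 22.6, 56.4 and 65.3 CPM and 57.2, 34.0 and 37.1 CPM, and *Syt10* at 1.43, 3.81 and 6.44 CPM and 5.61, 2.65 and 3.99 CPM. The same libraries were high and low for both. For *Slc17a7* and *Stx1a*, *Lgmn*+/+ replicate 1 and *Lgmn*-/- replicates 2 and 3 lay above the remaining 3 libraries.

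A list of 9 striatal markers was highest in *Lgmn*+/+ replicate 3 and *Lgmn*-/- replicate 1, as were *Sv2c*, *Unc13c* and *Syt10*. Its summed level was 542, 1333 and 2402 CPM in *Lgmn*+/+ and 2131, 456 and 471 CPM in *Lgmn*-/-, and none of the 9 passed the genotype test. *Slc32a1* was also highest in those libraries, at 225 CPM in *Lgmn*+/+ replicate 3 and 196 CPM in *Lgmn*-/- replicate 1. Some other members named above did not follow the list, or did so only in part. *Slc17a7* and *Stx1a* were low in those libraries. *Syt14* was at 2.11 CPM in *Lgmn*+/+ replicate 1 and 12.9 to 15.6 CPM elsewhere. *Slc17a8* was highest within each genotype where the list was, at 3.85 CPM in *Lgmn*+/+ replicate 3 and 7.25 CPM in *Lgmn*-/- replicate 1. Across genotypes it did not follow the list, as the 3.85 CPM lay near the 3.92 and 3.94 CPM of *Lgmn*-/- replicates 2 and 3. *Sv2c*, *Unc13c* and *Syt10* were picked after their values were seen. No correlation was computed, and the part of dissected tissue in these values was not tested. With the log2 striatal sum as a covariate, a fit also chosen after seeing the data, 2 members passed where 3.09% of all genes did, *Rims1* (log2 fold change -0.53, adjusted p = 0.0338, edgeR) and *Slc17a8* (1.61, adjusted p = 0.0363), and *Sv2c* moved from -0.07 to 0.48 without passing.

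**Figure D5:**
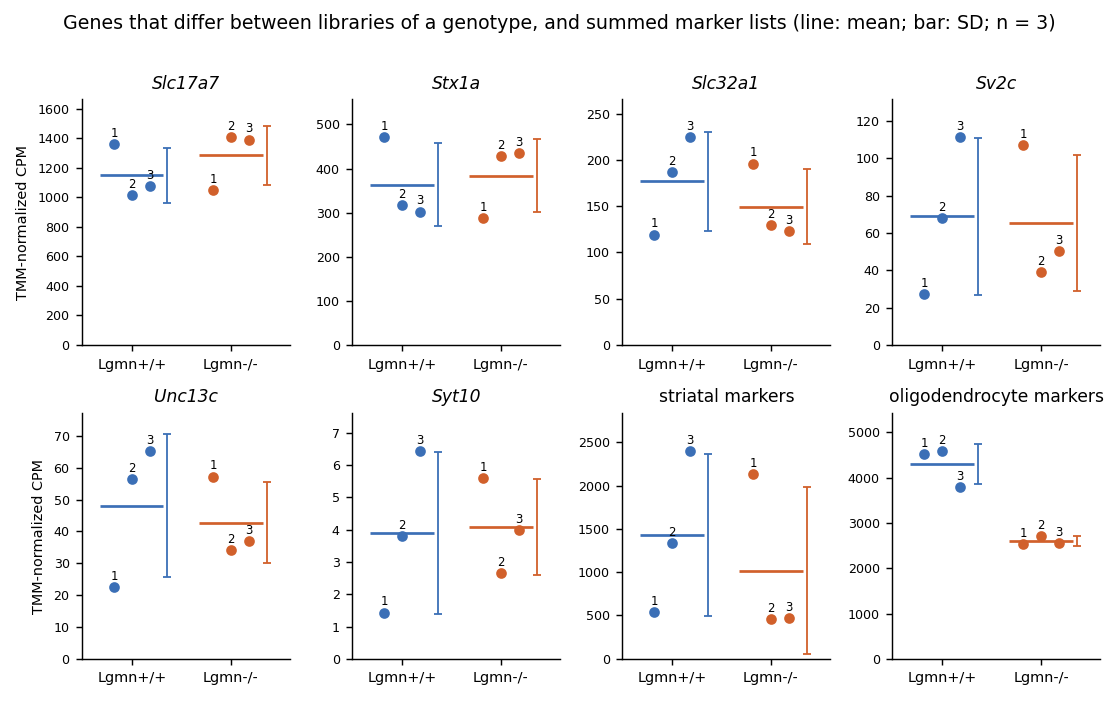
TMM-normalized CPM of 6 members that varied between libraries of one genotype and of summed striatal and oligodendrocyte markers, with each library numbered by replicate, the mean as a line and the SD as a bar (n = 3 per genotype). *Slc32a1*, *Sv2c*, *Unc13c*, *Syt10* and the striatal sum are high in *Lgmn*+/+ replicate 3 and *Lgmn*-/- replicate 1, *Slc17a7* and *Stx1a* are low there, and the oligodendrocyte sum alone separates by genotype.

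Beyond the 72 genes, 76 companion genes of the same pathway were tested: adaptors of NSF and further SNAREs, vesicle membrane proteins, the Rab3 and Rab27 cycle, priming and calcium-sensing factors, active zone scaffolds, and vesicle endocytosis. Of these, 1 was higher and 0 were lower (edgeR, against 3.33% of all genes called), 11 had an unadjusted p under 0.05 (14.5%, against 18.6% of all genes), and the median log2 fold change was 0.07. The gene called was *Vti1a*, a SNARE of the trans-Golgi network and endosomes that is also found on vesicles. It was at 56.3, 52.8 and 52.2 CPM in *Lgmn*+/+ and 74.2, 75.7 and 78.7 CPM in *Lgmn*-/-. The 2 sets were far apart relative to their spread (53.7 ± 2.19 and 76.2 ± 2.32 CPM, SD, n = 3; log2 fold change 0.50, interval 0.31 to 0.70, adjusted p = 0.0235, edgeR). With one library left out the log2 fold change stayed between 0.48 and 0.54, but the call held only without *Lgmn*-/- replicate 2, and leaving out any other library gave an adjusted p from 0.0582 to 0.128.

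The companions with the next smallest p did not pass. *Rab27b*, a GTPase of secretory vesicles, was at 28.5, 27.3 and 30.1 CPM in *Lgmn*+/+ and 21.9, 23.3 and 22.4 CPM in *Lgmn*-/- (log2 fold change -0.35, adjusted p = 0.101, edgeR). *Apba1*, which encodes the presynaptic adaptor Mint1, was at 182, 200 and 200 CPM and 233, 246 and 332 CPM (0.48, adjusted p = 0.140). Neither overlapped between genotypes, and the same held for *Syngr2* and *Slc6a17*. *Syngr2*, a synaptogyrin, was at 2.18, 2.83 and 3.10 CPM and 4.86, 10.2 and 3.78 CPM (1.22, adjusted p = 0.152). *Slc6a17*, a vesicular amino acid transporter, was at 108, 281 and 183 CPM and 89.2, 99.0 and 103 CPM (-0.97, adjusted p = 0.158), and with *Lgmn*+/+ replicate 1 left out it passed (-1.25, adjusted p = 0.0374). DESeq2 called *Rab27b*, *Syngr2* and *Slc6a17* in addition to *Vti1a*.

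The place of the genes in the genome bears on how the counts can be read. The 72 genes, all protein coding in GENCODE M21, lie on 19 chromosomes, 2 of them on chromosome 12 with *Lgmn*. Exons of 17 overlap a gene on the opposite strand and 2 overlap one on the same strand, and *Stxbp3* has a near-identical copy elsewhere, the pseudogene *Stxbp3-ps*. The strand setting of the counting is not given in the sources used here, so reads of such pairs may have been shared between them. Among the release machinery genes named in the text, *Slc32a1*, *Syp*, *Sv2b*, *Unc13a*, *Bsn*, *Pclo*, *Rab3a*, *Syn1*, *Syn2* and *Syn3* have such an overlap, as do the companions *Apba1* and *Syngr2*.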

How the data were processed

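Cortical polyA RNA of 3 irradiated *Lgmn*+/+ and 3 irradiated *Lgmn*-/- mice was analysed from the deposited tables. The authors trimmed reads with Trimmomatic 0.36 (per the labels), mapped them with HISAT2 to GRCm38 and computed expression with StringTie. The deposited raw counts per gene are not normalized, and the FPKM values deposited by the authors correct for library size and transcript length. The counting tool, its strand setting and the annotation are not given in the sources used here.

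Raw counts were tested with edgeR 4.0.16 in R 4.3.3 (TMM, filterByExpr, quasi-likelihood F-test, genotype only, Benjamini-Hochberg over 18345 genes, threshold 0.05), which replaces the limma step the study names. Intervals are 95% and come from the F statistic. Low FPKM values were kept for levels and shares. Alternatives were DESeq2 1.42.0, limma 3.58.1 (voom, and log2 FPKM with pseudocounts 1, 0.1 and 0.01), different scaling factors, no filter or a stricter one, a block for the replicate number, and each library left out.

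The genes, lists and tests were chosen with earlier results of these data known. Named are the 10 members with the smallest p, 20 core genes chosen by function, companion genes called or among the 5 smallest p, *Lgmn* and markers that moved. Single-gene results for 2 of these are not reported here, and counts over all members include them. *Sv2c*, *Unc13c* and *Syt10* were added after their values were seen. Libraries of one genotype differed beyond counting noise and each was counted as 1 sample. Nothing in the labels says whether the libraries of a genotype came from separate animals, so p-values measure the spread between these samples, and counting error without molecular identifiers is only part of it. Same-numbered libraries are different mice. No protein sequences were used here.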

Additional observations from a re-analysis of the deposited data

How the results depend on the processing

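The call of 0 members held under limma-voom, other normalizations and filters, limma on log2 FPKM and every left-out library. DESeq2 called 1 member higher, and the striatal covariate, chosen after seeing the data, called 1 higher and 1 lower, of which 1 was over 2-fold. Companion genes called higher numbered 2 with DESeq2, 2 with limma on log2 FPKM at pseudocounts of 1, 0.1 and 0.01, and 0 to 1 with a library left out. Companions called lower numbered 2 with DESeq2 and 0 to 1 with a library left out. Members not overlapping numbered 27 without *Lgmn*+/+ replicate 1, 29 without *Lgmn*-/- replicate 1 and 16 or 17 without any other library, while 31.7% to 42.7% of all genes did not overlap. With the replicate block, 0 members and 0 companions were called, and 150 genes in all against 611. The deviations of same-numbered libraries had correlations of -0.296, -0.048 and -0.047 over all genes. Over the members they were -0.548, -0.135 and -0.126. None was positive, and whether same-numbered libraries shared a batch was not tested.

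Members with a fold change near 0, and some with a wide spread, changed sign. With a library left out, the log2 fold change ran from -0.0397 to 0.32 for *Stx1a*, -0.056 to 0.029 for *Cplx2*, -0.032 to 0.20 for *Pclo*, -0.18 to 0.35 for *Slc17a6*, -0.63 to 0.46 for *Sv2c*, -0.50 to 0.12 for *Unc13c* and -0.32 to 0.64 for *Syt10*. Limma-voom gave 0.00270 for *Sv2c*, and the striatal covariate gave -0.10 for *Stx1a*, 0.00236 for *Cplx2*, -8.3e-04 for *Syp*, 0.48 for *Sv2c* and 0.22 for *Unc13c*. The cause was not tested. The interval lay within 1.5-fold for 43 of 68 members, so changes of that size could be missed in the others with 3 libraries a genotype.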
